A study of Homo sapiens with 4 samples.

Results

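The genes described here present peptides on major histocompatibility complex (MHC) class I molecules. They were followed in H1299, derived from a non-small cell carcinoma of the human lung, and HCT116, derived from a human colorectal carcinoma, after an inhibitor of DNA methylation and an inhibitor of histone deacetylation were given together. The set has 9 genes, chosen by name: the heavy chain genes HLA-B, HLA-C, HLA-E and HLA-F, the light chain gene B2M, the transporter genes TAP1 and TAP2, and the immunoproteasome genes PSMB8 and PSMB9. Of the 43296 gene names in the deposited table, 8 were these genes under names of their own. TAP2 appeared only in a name joined with a clone-named transcript (TAP2_XXbac-BPG246D15.9), so its counts cannot be divided between the members of that name and are given apart. PSMB9 also occurred in 1 joined name, with 0 to 7 counts in a library, which was left out.

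The study compared 4 groups, each a single library of 5′ single-cell RNA sequencing. H1299 and HCT116 cells at passage 5 to 10 received either the solvent DMSO or DAC+SB. DAC, or decitabine, blocks DNA methyltransferases and was given at 500 nM for 72 h. SB stands for SB939, which blocks histone deacetylases and was given at 500 nM for 18 h. In the treated cultures the medium was refreshed every 24 h over the 72 h course. There was no library with either compound alone, so the effects of DAC and of SB939 cannot be told apart. With 1 library per group there was no replicate check and no test. Every interval is a 95% interval that covers counting error only, and it says nothing about differences between cultures or library preparations.

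The 4 libraries held 15289 cells, between 3578 and 4327 each. Summed gene and transposable element counts lay between 62428673 and 64524196 in 3 libraries and reached 38927267 in HCT116 DAC+SB, where the median cell had 8449 counts against 15784.5 to 17369.5 elsewhere. The median mitochondrial share was 8.33% and 8.87% in H1299 (DMSO first) and 15.8% and 18.6% in HCT116. Cell barcodes shared between libraries numbered 131. Marker genes were used to check the labelled lines. The colon epithelial list summed to 0.387 and 15.3 CPM (counts per 1000000 gene plus element counts) in H1299 with DMSO and with DAC+SB, against 137 and 82.6 in HCT116. The mesenchymal list summed to 2676 and 1405 CPM in H1299 against 227 and 331 in HCT116. Each list was higher in its own line under both conditions. As neither line holds immune cells, leukocyte markers were also summed, and they moved with the treatment: 0.403 to 19.4 CPM in H1299, with 4 and then 8 of 8 markers counted, and 2.38 to 13.5 CPM in HCT116, with 5 and then 8 counted. The defining leukocyte gene PTPRC had 0 and 8 counts in the H1299 libraries and 0 and 5 in the HCT116 libraries. The fibroblast and endothelial markers likewise went from 0.325 to 23.0 CPM in H1299 and from 8.43 to 21.5 CPM in HCT116. Their part in the results below was not tested.

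In the class I pathway, proteasomes cut proteins into peptides, the TAP transporter carries the peptides into the endoplasmic reticulum, and a loading complex places them on a heavy chain bound to beta-2-microglobulin, which then travels to the cell surface for inspection by CD8+ T cells and natural killer cells. Interferon switches the proteasome to immunoproteasome subunits, among them PSMB8 (LMP7) and PSMB9 (LMP2), and raises the transcription of the whole pathway through IRF1 and the class I transactivator NLRC5. Reduced class I expression is a well known feature of many tumour lines.

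Except for B2M the genes lie in the MHC on chromosome 6. In GENCODE v29 on GRCh38 they are HLA-F at chr6:29722775-29738528 (+), HLA-E at chr6:30489467-30494205 (+), HLA-C at chr6:31268749-31272130 (-), HLA-B at chr6:31269491-31357188 (-), TAP2 at chr6:32821833-32838780 (-), PSMB8 at chr6:32840717-32844703 (-), PSMB9 at chr6:32844136-32859585 (+) and TAP1 at chr6:32845209-32853978 (-). B2M lies at chr15:44711487-44718877 (+). The annotated range of TAP1 lies wholly within that of PSMB9, on the opposite strand. Those of PSMB8 and PSMB9 overlap at their ends, and a transcript of HLA-B runs into HLA-C on the same strand. Whether counting used the strand was not given in the sources used here, so reads in the overlaps could have been counted for either gene.

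Because 5′ reads lie near the start of a transcript, the sequences before the starts are shown for 4 genes that behaved differently: HLA-B, TAP1, PSMB9 and B2M. Each is the 250 bases before the RefSeq start (GRCh38.p14), read 5′ to 3′ on the strand of the gene. Capitals mark matches to the interferon-stimulated response element (ISRE, searched as GAAA, any 2 bases, GAAA) or to the NF-kB site, searched on both strands.
HLA-B (chr6:31357180-31357429, -): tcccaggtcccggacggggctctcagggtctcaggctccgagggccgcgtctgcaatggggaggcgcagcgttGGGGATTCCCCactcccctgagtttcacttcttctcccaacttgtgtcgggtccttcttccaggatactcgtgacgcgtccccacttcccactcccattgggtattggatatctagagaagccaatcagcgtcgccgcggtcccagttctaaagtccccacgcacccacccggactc
TAP1 (chr6:32853705-32853954, -): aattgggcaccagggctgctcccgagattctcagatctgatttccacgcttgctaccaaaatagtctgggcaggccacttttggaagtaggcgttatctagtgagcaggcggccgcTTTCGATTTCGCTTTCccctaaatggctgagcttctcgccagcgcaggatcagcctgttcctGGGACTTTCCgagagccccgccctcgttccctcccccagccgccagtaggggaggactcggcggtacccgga
PSMB9 (chr6:32853942-32854191, +): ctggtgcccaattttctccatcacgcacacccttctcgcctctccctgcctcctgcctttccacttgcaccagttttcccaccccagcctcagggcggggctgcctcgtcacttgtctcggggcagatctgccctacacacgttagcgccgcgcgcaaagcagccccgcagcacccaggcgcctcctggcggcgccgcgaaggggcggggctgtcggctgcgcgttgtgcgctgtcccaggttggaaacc
B2M (chr15:44711267-44711516, +): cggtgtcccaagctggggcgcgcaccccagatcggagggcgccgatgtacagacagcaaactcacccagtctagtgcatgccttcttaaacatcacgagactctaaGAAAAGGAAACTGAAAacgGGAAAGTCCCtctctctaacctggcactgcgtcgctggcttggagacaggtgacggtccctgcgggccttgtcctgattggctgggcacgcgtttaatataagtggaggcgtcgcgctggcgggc

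PSMB9 and TAP1 are transcribed away from each other from starts 488 bases apart, and the printed stretches share 13 bases. Over the searched window of 300 bases (250 before and 50 after a start), RefSeq gave promoters for 8 of the 9 genes, all but HLA-E. An ISRE match occurred in HLA-F, TAP2, TAP1 (2 overlapping matches), B2M (2 overlapping matches) and the second start of PSMB8, and in none of the windows of HLA-B, HLA-C and PSMB9. Of 35116 RefSeq windows of the same length, 3.57% held an ISRE match. NF-kB matches occurred in HLA-B (2 overlapping), HLA-C, TAP1 (2) and B2M, against 11.3% of all windows. The windows held between 11 and 26 CpG dinucleotides, with 26 in PSMB9, and the median over all windows was 14 (quartiles 4 and 28). A match describes the letters only. Only exact matches to the searched letters were taken, so a window without one may still hold a variant of the site. It also says nothing about binding elsewhere.

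After DAC+SB, the 4 heavy chain genes were higher than with DMSO in H1299, whereas in HCT116 HLA-F alone was higher by over 1.5-fold. HLA-B and HLA-C, which present peptides to T cells, were higher in H1299 by less than 2-fold. HLA-E, the ligand of the NKG2A receptor on natural killer cells, was higher with DAC+SB in H1299 and lower in HCT116. HLA-F, a less abundant class I chain that can appear on cells without bound peptide, was higher in both lines. Here and below "higher" and "lower" describe the 4 libraries, with values in CPM.

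HLA-B stood at 55.8 CPM with DMSO and 98.4 CPM with DAC+SB in H1299 (3603 and 6141 counts). In HCT116 it stood at 32.9 and 36.1 CPM (2062 and 1404 counts). The log2 ratio of DAC+SB to DMSO was 0.82 (0.76 to 0.88) in H1299 and 0.13 (0.03 to 0.23) in HCT116, where it was -0.25 over features without a number, a distinction taken up further on. The HCT116 ratio was thus below the H1299 ratio by 0.69 (a difference of -0.69, interval -0.80 to -0.57).

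HLA-C stood at 51.0 and 82.8 CPM in H1299 (3289 and 5168 counts, DMSO first) and at 74.0 and 78.8 in HCT116 (4634 and 3069 counts). Its log2 ratio was 0.70 (0.64 to 0.76) in H1299 and 0.09 (0.03 to 0.16) in HCT116, again -0.25 there over features without a number. HLA-C was higher in HCT116 than in H1299 with DMSO, and the treated lines came close to each other, with a log2 ratio of HCT116 to H1299 of -0.07.

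HLA-E went from 37.0 CPM (2387 counts) to 75.1 (4686) in H1299 and from 28.8 (1801) to 23.4 (909) in HCT116. The log2 ratios were 1.02 (0.95 to 1.09) and -0.30 (-0.42 to -0.18), opposite in direction. Over features without a number HLA-B and HLA-C were opposite in the lines too, and the numbered feature of HLA-E in HCT116 was above 0. The difference of -1.32 (-1.46 to -1.19) was the largest in size between the lines among the heavy chains. The fold in H1299 was 2.03 (1.93 to 2.13), so its interval spans the 2-fold threshold used for calls.

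HLA-F went from 2.08 CPM (134 counts) to 7.05 (440) in H1299 and from 2.17 (136) to 5.60 (218) in HCT116. It rose 3.39-fold in H1299 and 2.58-fold in HCT116, log2 ratios of 1.76 (1.48 to 2.05) and 1.37 (1.05 to 1.69). A second numbered feature of HLA-F was listed only in H1299 DMSO (15 counts) and HCT116 DAC+SB (30 counts), and with features listed in all 4 libraries the ratios were 1.93 and 1.15. The DMSO levels of the lines overlapped within counting error, and the interval of the difference between the lines' ratios spans 0 (-0.40, -0.81 to 0.02). HLA genes resemble each other, so reads may have been divided between them. Distinct words of 50 bases were taken over the whole length of the reference protein-coding transcripts. Of these, 2.12% of those of HLA-B, 6.17% of HLA-C, 4.66% of HLA-E and 0.669% of HLA-F were shared with another HLA gene. Words near the starts, where 5′ reads lie, were not counted apart. The alleles of the lines may differ from the reference.

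B2M encodes the light chain that every class I heavy chain needs to leave the endoplasmic reticulum. It stood at 213 CPM in H1299 with DMSO and 303 with the compounds (13733 and 18887 counts). The HCT116 levels were 207 and 355 CPM (12965 and 13800 counts). In H1299 the log2 ratio was 0.51 (0.48 to 0.54), against -0.03 over features without a number. In HCT116 it was 0.78 (0.74 to 0.81), against -0.08 over features without a number. B2M was the member of the cell surface complex with the larger ratio in HCT116, by 0.27 (0.22 to 0.32).

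**Figure D1:**
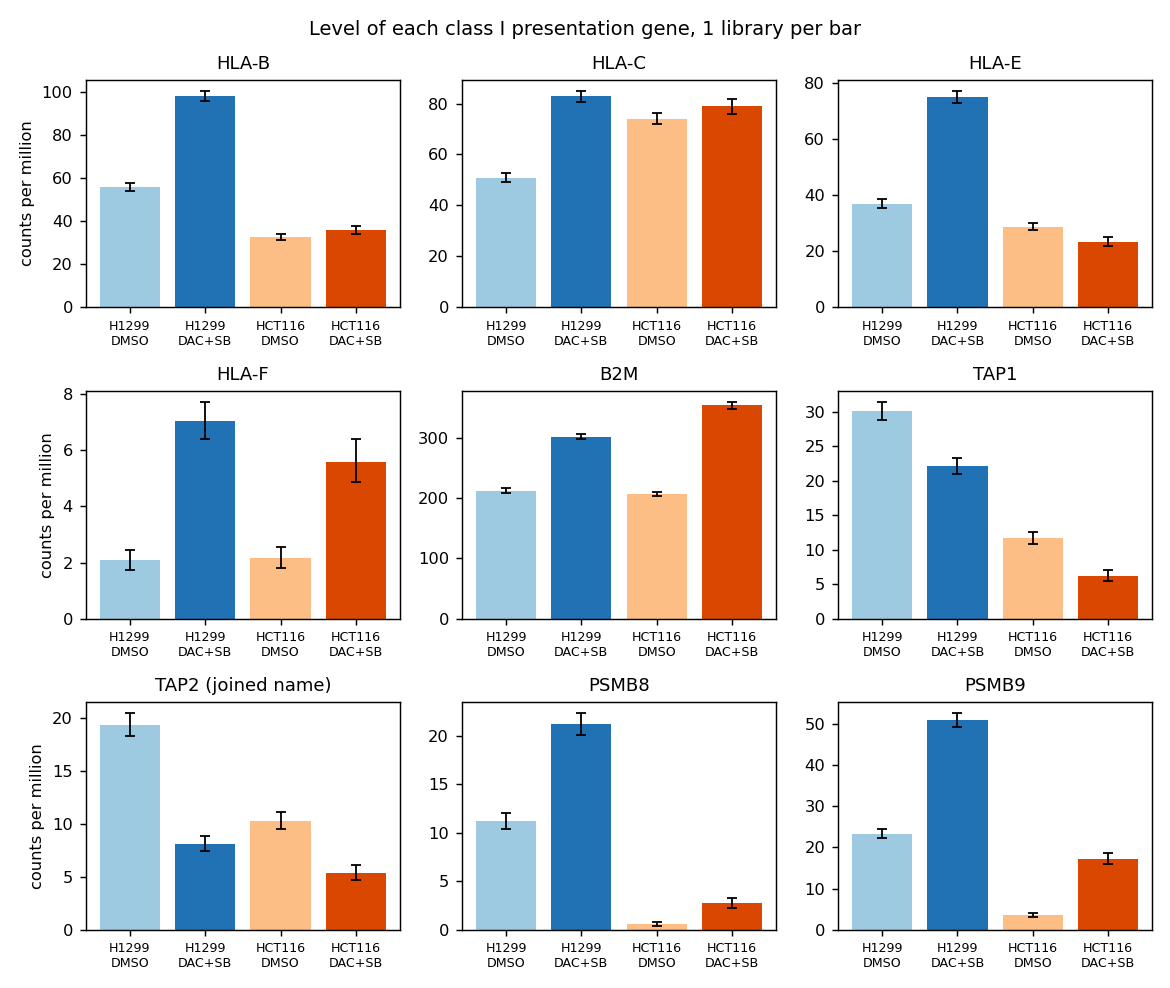
Level of each gene in CPM, 1 bar per library, with exact Poisson 95% intervals. Each panel has its own axis starting at 0. TAP1 and the joined name with TAP2 are lower with DAC+SB in both lines, while HLA-F, B2M, PSMB8 and PSMB9 are higher in both (B2M not over features without a number).

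The transporter moved the other way. TAP1, one subunit of the peptide transporter, had 30.1 CPM in H1299 with DMSO and 22.1 with the compounds (1943 and 1379 counts). In HCT116 it had 11.6 and 6.19 CPM (729 and 241 counts). The log2 ratio was -0.45 (-0.55 to -0.35) in H1299 and -0.91 (-1.13 to -0.70) in HCT116, so TAP1 was lower with DAC+SB in both lines. TAP1 was the only gene of the 8 that was lower in H1299. The joined name with TAP2, the other subunit, went from 19.3 CPM (1248 counts) to 8.11 (506) in H1299 and from 10.2 (641) to 5.34 (208) in HCT116. Its log2 ratios were -1.25 (-1.41 to -1.10) and -0.94 (-1.17 to -0.71), lower in both lines, as for TAP1.

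PSMB8 and PSMB9 were higher with DAC+SB in both lines. Over all listed features the ratios were larger in HCT116, where the DMSO levels were low, but over features without a number the intervals of the lines overlapped for both genes. PSMB9, the catalytic subunit that replaces PSMB6, went from 23.4 CPM (1508 counts) to 50.9 (3176) in H1299 and from 3.67 (230) to 17.2 (669) in HCT116. That is 2.18-fold and 4.68-fold, with log2 ratios of 1.12 (1.03 to 1.21) and 2.23 (2.01 to 2.45) and a difference of 1.10 (0.87 to 1.34). Its ratios over features without a number were 0.97 (0.81 to 1.14) in H1299 and 1.40 (0.93 to 1.88) in HCT116. Every DMSO interval lay below the interval of the treated library of the same line.

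PSMB8, the subunit that replaces PSMB5, went from 11.2 CPM (721 counts) to 21.2 (1324) in H1299. The ratio was 0.92 on the log2 scale (0.79 to 1.06). In HCT116 it went from 0.559 CPM on 35 counts to 2.75 on 107 counts, a log2 ratio of 2.30 (1.74 to 2.89). Of those 107 counts, 70 came from a numbered feature that was not listed in the DMSO library. Over features without a number PSMB8 had 35 and 37 counts in HCT116 and its log2 ratio was 0.77 (0.06 to 1.48), so the size of its change in this line rests on that unlisted feature.

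The constitutive partners moved less or the other way. PSMB5 had 156 CPM with DMSO and 94.8 with DAC+SB in H1299 and fell from 201 to 83.8 CPM in HCT116, log2 ratios of -0.72 (-0.76 to -0.67) and -1.26 (-1.31 to -1.20). PSMB6 differed by 0.11 and -0.01. As a share of the counts of each pair, PSMB9 was 13.4% of PSMB9 and PSMB6 in H1299 DMSO and 23.7% with DAC+SB, and 1.37% and 6.14% in HCT116. PSMB8 was 6.70% and 18.3% of PSMB8 and PSMB5 in H1299 and 0.278% and 3.18% in HCT116, where the numbered PSMB8 feature was listed only with DAC+SB. The shares over features without a number were 15.6% and 35.2% in H1299, and in HCT116 they were 1.06% (0.741% to 1.47%) and 6.64% (4.72% to 9.04%). PSMB5 had 3503 and 1683 such counts in H1299 and 3261 and 520 in HCT116. PSMB8 had 35 and 37 in HCT116, so that share rose mainly as the PSMB5 counts fell. These shares are of counts near the start sites and are not shares of protein.

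PSMB9 and TAP1, which share the region between their starts, changed in opposite directions in both lines when summed over their features. PSMB9 made up 43.7% of the counts of both genes in H1299 DMSO (42.0% to 45.4%) and 69.7% with DAC+SB (68.4% to 71.1%). In HCT116 the share went from 24.0% (21.3% to 26.8%) to 73.5% (70.5% to 76.4%). TAP1 counts of a numbered feature not listed in H1299 DMSO enter these shares. As TAP1 lies within the annotated range of PSMB9, the shares also depend on whether counting used the strand, which was not given. The shares over features without a number were 18.5% (17.0% to 20.1%) and 43.4% (41.2% to 45.6%) in H1299 and 9.08% (7.02% to 11.5%) and 37.7% (31.9% to 43.9%) in HCT116, again higher with DAC+SB in both lines.

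Set against all genes, 3 of the 8 genes were at least 2-fold higher in H1299 (HLA-E, HLA-F and PSMB9) and none was at least 2-fold lower. Over the 14610 genes with at least 100 counts in the library with more, 18.3% were at least 2-fold higher and 7.34% lower. In HCT116 3 of 8 were at least 2-fold higher (HLA-F, PSMB8 and PSMB9) and none lower, against 16.2% higher and 20.0% lower among 13539 genes. At least 4-fold higher were 0 of 8 in H1299, against 11.0% of genes, and 2 of 8 in HCT116 (PSMB8 and PSMB9), against 9.63%. None was 4-fold lower in either line, against 0.349% and 3.69%. These calls depend on the features. Over features without a number, 1 of 8 was 2-fold higher in H1299 (HLA-F), against 14.4% of genes, and none lower, against 9.46%. HLA-F there also passed 4-fold, against 7.90%. In HCT116, 1 of 6 was then 2-fold higher (PSMB9), against 10.2%, and 1 was 2-fold lower (TAP1), against 25.7%. None of the 6 passed 4-fold in either direction, against 5.31% higher and 4.56% lower. HLA-F and PSMB8 were left out there, with under 100 counts, and were at 1.30 (0.83 to 1.79) and 0.77 (0.06 to 1.48). The median log2 ratio of the 8 was 0.87 in H1299 and 0.45 in HCT116, where that of all genes was -0.07 and -0.23. Ratios above 0 were found for 7 of 8 in H1299 (45.9% of all genes) and for 6 of 8 in HCT116 (40.6%). The HCT116 median was -0.25 over features without a number, which kept 6 of the 8 genes, against -0.45 for all genes counted that way. Over all features the middle values of those 6 genes were 0.09 (HLA-C) and 0.13 (HLA-B), so part of that shift is the change of genes. In HCT116 the treated library also had fewer counts per cell and a higher mitochondrial share. Without cells above 25% mitochondrial counts the HCT116 median was 0.17 over 7 genes, since PSMB8 then had under 100 counts. Those 7 genes had a median of 0.13 over all cells, the value of HLA-B.

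**Figure D2:**
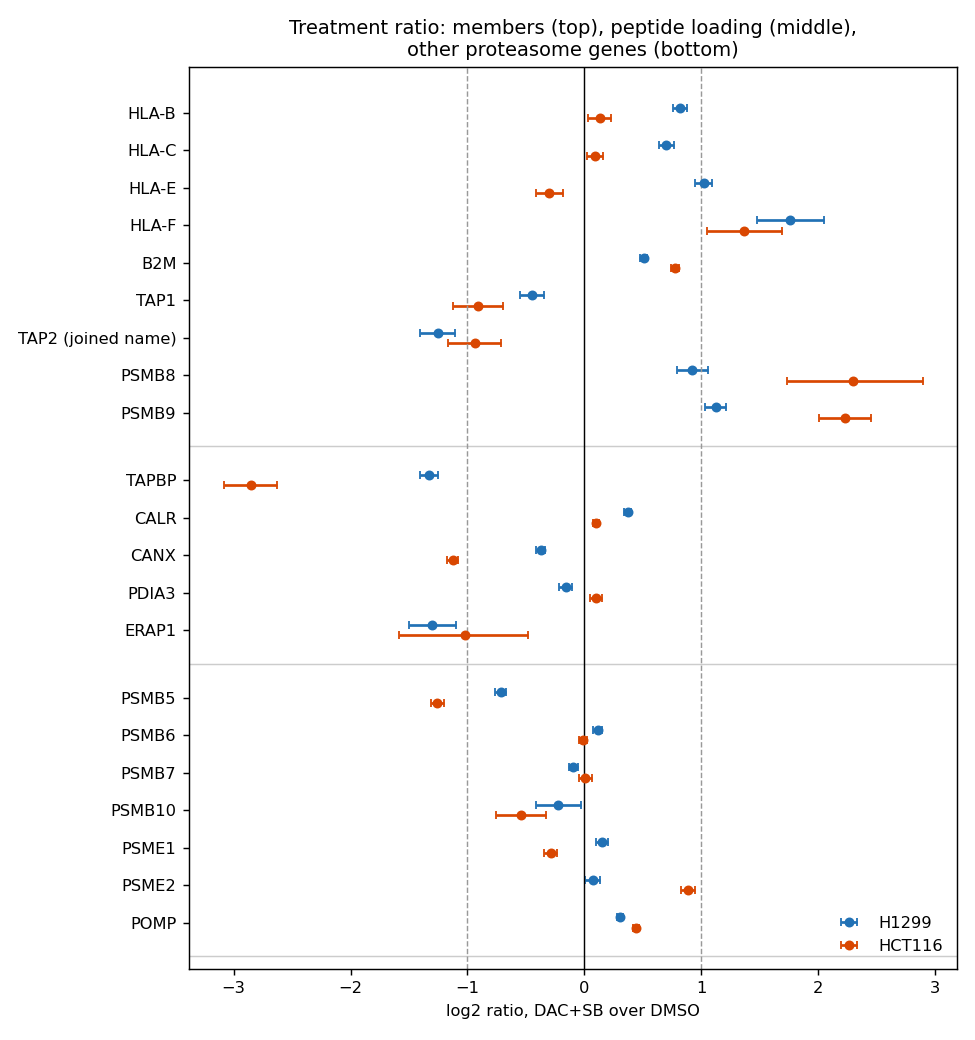
Log2 ratio of DAC+SB to DMSO for each gene in H1299 and HCT116, with exact conditional 95% intervals for counting error. The genes of the set stand at the top, peptide loading genes in the middle and other proteasome genes at the bottom. All ratios are summed over listed features. HLA-E lies on opposite sides of 0 in the lines, and TAPBP lies far below 0 in both, at -1.33 and -2.85.

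Between the untreated lines, HCT116 had less PSMB8, PSMB9 and transporter RNA, while B2M and HLA-F, summed over all listed features, were near the H1299 level. PSMB8 was 20.0-fold lower and PSMB9 6.36-fold lower in HCT116 DMSO than in H1299 DMSO, log2 ratios of -4.32 and -2.67. The PSMB8 value lacks the numbered feature that HCT116 DMSO did not list. H1299 DMSO had 648 PSMB8 counts without a number, against 35. TAP1 had a log2 ratio of -1.37 and the joined name with TAP2 of -0.92. HLA-B was at -0.76, HLA-E at -0.36, B2M at -0.04 and HLA-F at 0.06 (-0.29 to 0.42), and HLA-C was higher in HCT116 at 0.54. Neither H1299 library listed the numbered feature of HLA-B, and without that feature HLA-B was at -1.58. With numbered features only where listed in all 4 libraries, 4 of 8 genes were at least 2-fold lower, against 20.7% of genes. B2M was at -0.64 and HLA-F at -0.62 over features without a number. At least 2-fold lower in HCT116 were 3 of 8 genes, and none was 2-fold higher, against 20.5% and 15.2% of 13796 genes. At 4-fold, 2 of 8 were lower (PSMB8 and PSMB9), against 9.92%, and none higher, against 8.11%.

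With DAC+SB in both lines, 5 of 8 were at least 2-fold lower in HCT116 (HLA-B, HLA-E, TAP1, PSMB8 and PSMB9), against 25.4% of 14875 genes, and none was 2-fold higher, against 12.1%. At 4-fold, 1 of 8 was lower (PSMB8), against 8.97%, and none higher, against 4.65%. Counted over features without a number, 6 of 8 were 2-fold lower, against 33.7% of genes, and 5 of 8 were 4-fold lower (HLA-B, HLA-E, TAP1, PSMB8 and PSMB9), against 10.1%. Over all listed features PSMB8 and PSMB9 were 7.72-fold and 2.96-fold lower. Over features without a number the PSMB8 log2 ratio was -4.17 (-4.70 to -3.68) between DMSO libraries and -3.94 (-4.46 to -3.47) between treated ones, whose intervals overlap. For PSMB9 it was -2.81 (-3.22 to -2.42) and -2.39 (-2.70 to -2.08), also overlapping. HLA-B and HLA-E lay further apart than with DMSO, with log2 ratios of -1.45 and -1.68. Without its numbered feature HLA-B was at -2.65. HLA-F was at -0.33 and B2M at 0.23, but at -1.33 and -0.68 (-0.77 to -0.60) over features without a number, so the direction of B2M between the treated lines depends on the features. The median over the 8 genes went from -0.56 between the DMSO libraries to -1.51 between the treated ones. Over all genes it went from -0.11 to -0.29.

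The other genes of the pathway were counted from lists. Their ratios were summed over all listed features and were not examined by kind of feature, so a numbered feature missing from a library could change them. Among 7 peptide loading genes, none of those with enough counts (6 in H1299, 5 in HCT116) rose 2-fold, against 18.3% and 16.2% of all genes. At least 2-fold lower were 3 of 6 in H1299 (7.34% of all genes) and 3 of 5 in HCT116 (20.0% of all genes). TAPBP (tapasin), which bridges the TAP transporter and the heavy chain, went from 73.9 to 29.4 CPM in H1299 and from 32.6 to 4.52 CPM in HCT116. These were log2 ratios of -1.33 (-1.41 to -1.25) and -2.85 (-3.08 to -2.63). ERAP1 and ERAP2 trim peptides in the endoplasmic reticulum. ERAP1 fell in both, with 726 and 285 counts in H1299 (log2 ratio -1.30) and 124 and 38 in HCT116 (-1.02), and ERAP2 fell from 145 to 42 counts in H1299 (-1.74) with at most 35 counts in HCT116. The chaperone gene CANX (calnexin) fell 2-fold only in HCT116, at -1.13, and was at -0.37 in H1299. CALR was at 0.37 and 0.10 and PDIA3 at -0.16 and 0.10.

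Of 4 other immunoproteasome genes (PSMB10, PSME1, PSME2 and POMP) none passed 2-fold in either line. Among all genes 18.3% rose and 7.34% fell in H1299, and 16.2% rose and 20.0% fell in HCT116. PSMB10, the third inducible catalytic subunit, was at -0.22 and -0.54. PSME2, a subunit of the PA28 activator, was nearest, at 0.89 in HCT116 and 0.07 in H1299. Most PSMB10 counts stood under a joined name, CTC-479C5.12_PSMB10, with 99.7 and 89.0 CPM in H1299 and 107 and 69.8 CPM in HCT116, so its own value is uncertain. Of the 3 constitutive catalytic subunits, PSMB5 alone passed 2-fold, lower in HCT116, where 20.0% of all genes were.

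Among 15 genes of class I transcription, 1 of 13 fell 2-fold in H1299 and none rose. In HCT116 1 of 14 rose and 3 fell. Among all genes 7.34% fell and 18.3% rose in H1299 and 20.0% fell and 16.2% rose in HCT116. At 2-fold the falls were thus near the background in both lines. At least 4-fold lower were 1 of 13 in H1299 (NFKB1), against 0.349% of genes, and 2 of 14 in HCT116 (NFKB1 and IRF2), against 3.69%. None was 4-fold higher, against 11.0% and 9.63%. NFKB1, which encodes the p105 precursor of the p50 subunit of NF-kB, fell in both, with 1929 and 463 counts in H1299 and 977 and 67 in HCT116, log2 ratios of -2.01 and -3.18. IRF2, an interferon response factor, had 419 counts with DMSO and 50 with DAC+SB in HCT116 (-2.38) and was at -0.70 in H1299. NLRC5 fell from 172 to 52 counts in HCT116 (-1.04, -1.52 to -0.58). In H1299 it had 27 and 83 counts, below the minimum of 100 (1.67, 1.03 to 2.35). NFYA, a subunit of the CCAAT-binding factor, rose in HCT116, with 886 and 1152 counts and a ratio of 1.07 after scaling, and was at -0.17 in H1299. IRF1, an activator of class I genes, was at -0.20 and 0.55 and did not reach 2-fold.

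In the list of 11 interferon receptor and signalling genes, 1 rose 2-fold in each line, and 2 fell 2-fold in HCT116. None of these counts was above the 2-fold shares of all genes just given. SOCS1, a feedback inhibitor of JAK kinases, rose in both, with 14 and 218 counts in H1299 and 107 and 825 in HCT116, 16.1-fold (log2 4.01, 3.23 to 4.90) and 12.4-fold (log2 3.63, 3.34 to 3.94). IFNGR2, a chain of the interferon gamma receptor, fell in HCT116 with a log2 ratio of -2.31 and was at -0.92 in H1299. USP18, another inhibitor of interferon signalling, fell in HCT116 at -1.56 and was at 0.52 in H1299.

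Among 5 class I-like genes, 4 had enough counts in H1299 and 3 in HCT116. MR1 (log2 1.23) and HLA-G (1.14) rose 2-fold in H1299, where 18.3% of all genes did, and FCGRT, the neonatal Fc receptor, rose in HCT116 (1.40), where 16.2% did. HFE, a regulator of iron uptake, fell in both, with 384 and 60 counts in H1299 (-2.63) and 152 and 10 in HCT116 (-3.24). HLA-G had 68 and 99 counts in HCT116, below the minimum, with a ratio of 1.23 (0.77 to 1.70), and CD1D had fewer than 10 in every library. Of 10 class II genes, most had too few counts to compare. CD74, the invariant chain, had 0 and 444 counts in H1299, at least 153-fold higher with 0 set to 3 counts, a bound that holds only if no unlisted feature had counts there. In HCT116 CD74 had 7 and 118 counts. HLA-DMA rose in H1299 from 62 to 341 counts (2.51) and HLA-DPB1 in HCT116 from 100 to 206 (1.73). Of the class II genes with enough counts, 2 of 2 rose 2-fold in H1299 (18.3% of all genes) and 2 of 3 in HCT116 (16.2%). Further HLA-DMA counts stood under a joined name, HLA-DMA_XXbac-BPG181M17.5, so its own value is uncertain. That name had 6 and 235 counts in H1299 (5.34) and 153 and 163 in HCT116 (0.78). HLA-DRA had 1 count in each H1299 library and 54 and 34 in HCT116, and HLA-DQA1 had fewer than 10 everywhere.

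The deposited table lists each gene as a feature without a number and, where present, as features with a number after the name. The meaning of the number was not given in those sources. In a 5′ assay, counts of a gene can come from separate starts, so both kinds are shown. No numbered feature was listed with fewer than 10 counts, and a numbered feature that is not listed cannot be read as 0. Numbered features held 57.9% and 61.5% of single-gene counts in H1299 and 62.2% and 67.9% in HCT116, with the DMSO library first.

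For B2M the increase stood in the numbered feature: it had 9579 and 14963 counts in H1299 and 10378 and 12274 in HCT116, while the feature without a number had 4154 and 3924 counts in H1299 and 2587 and 1526 in HCT116. The log2 ratios were 0.69 against -0.03 in H1299 and 0.93 against -0.08 in HCT116. For PSMB9 both kinds were higher, from 1067 to 2338 (numbered) and 441 to 838 counts in H1299, and from 169 to 569 and 61 to 100 in HCT116. For PSMB8 in H1299 the numbered feature went from 73 to 411 counts and the other from 648 to 913, log2 ratios of 2.54 and 0.54.

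TAP1 had no listed numbered feature in H1299 DMSO and 286 counts of it with DAC+SB. Its feature without a number went from 1943 to 1093 counts there, a log2 ratio of -0.78. In HCT116 the numbered feature of TAP1 had 118 and 76 counts, a log2 ratio of 0.05 (-0.38 to 0.48), and the other 611 and 165 counts, a ratio of -1.20. The decrease of TAP1 in HCT116 was therefore in the feature without a number. The joined name with TAP2 had 933 and 353 counts without a number and 315 and 153 with one in H1299, and 454 and 125, and 187 and 83, in HCT116, so both kinds had fewer counts with DAC+SB.

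HLA-B had a numbered feature in HCT116 only, with 896 and 796 counts beside 1166 and 608 without a number. Neither H1299 library listed it, where the feature without a number had 3603 and 6141. Its ratios in HCT116 were 0.52 with a number and -0.25 without, and those of HLA-C there were 0.48 (1856 and 1613 counts) and -0.25 (2778 and 1456). In H1299 HLA-C was at 0.86 (1569 and 2750 counts) and 0.54 (1720 and 2418). HLA-E was higher in both kinds in H1299, at 1.47 (565 and 1517) and 0.85 (1822 and 3169). In HCT116 its numbered feature was at 0.21 (582 and 417) and the other at -0.62 (1219 and 492). HLA-F without a number had 98 and 382 counts in H1299, a ratio of 2.01, and its numbered features were under 100 counts in every library.

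Over numbered features listed in both libraries of a line, the numbered features had the higher ratio in 5 of 6 genes with both kinds in H1299 and in 6 of 7 in HCT116, with median differences of 0.47 and 0.83 on the log2 scale. The exception in both lines was HLA-F, at 1.51 against 2.01 in H1299 and 1.02 against 1.30 in HCT116. Over all 8830 such genes in H1299 the median difference was 0.12 and 60.2% were above 0. Over 9673 genes in HCT116 it was 0.29 and 68.3% were above 0. The direction was therefore shared by most genes with both kinds, but their median difference was smaller than that of the set in both lines.

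**Figure D3:**
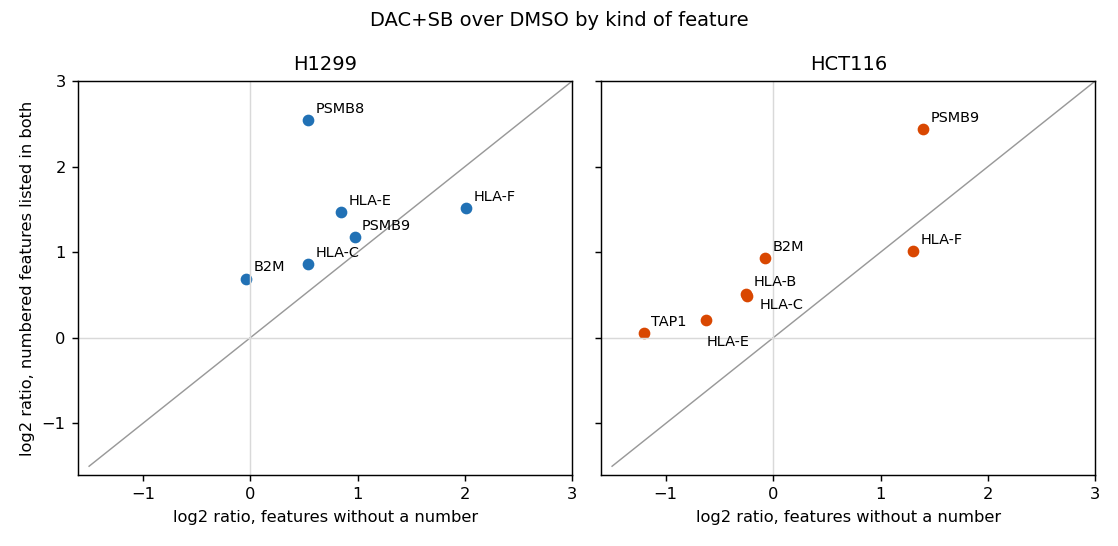
Log2 ratio of DAC+SB to DMSO over numbered features listed in both libraries of the line (vertical) against that over features without a number (horizontal), 1 point per gene with both kinds. The diagonal marks equal ratios, and every point but HLA-F in each line lies above it.

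Counts per cell were compared after thinning every cell to 3300 counts by random draw, which left out 402 HCT116 DAC+SB cells that were shallower and no cell of the other libraries. A cell with no count of a gene at this depth may still express it. All listed features of a gene were summed, and cells were not compared by kind of feature. B2M was counted in 47.4% of 3578 H1299 cells with DMSO and 56.6% of 3726 with DAC+SB, and in 47.8% of 3658 and 62.2% of 3925 cells in HCT116. Without thinning 90.3% and 92.1% of H1299 cells and 90.8% and 81.3% of HCT116 cells had a B2M count. The HCT116 order was thus reversed without thinning, where the treated cells were shallower, and the thinned order is that of the CPM.

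HLA-B was counted in 16.0% and 27.1% of thinned H1299 cells (DMSO first) and in 10.2% and 10.5% of HCT116 cells, the latter within each other's intervals. HLA-E was counted in 11.5% and 22.2% of H1299 cells and in 8.47% (7.59% to 9.42%) and 7.08% (6.30% to 7.93%) of HCT116 cells, whose intervals overlap. PSMB9 was counted in 6.51% and 14.2% of H1299 cells and in 0.820% and 4.64% of HCT116 cells. Fewer treated cells held TAP1, 6.52% against 8.97% in H1299 and 1.86% against 3.66% in HCT116. For TAPBP the treated shares were 9.10% against 21.6% in H1299 and 1.27% against 10.3% in HCT116. Without thinning HLA-B was counted in 55.5% and 69.6% of H1299 cells and in 36.1% and 23.1% of HCT116 cells, and PSMB9 in 28.0% and 46.5%, and 5.52% and 12.8%. No cell type that lacks class I genes was present, so the share that free RNA gives could not be measured for these genes. PTPRC, with 0 counts in both DMSO libraries, was counted in at most 0.0268% of thinned cells of a library.

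**Figure D4:**
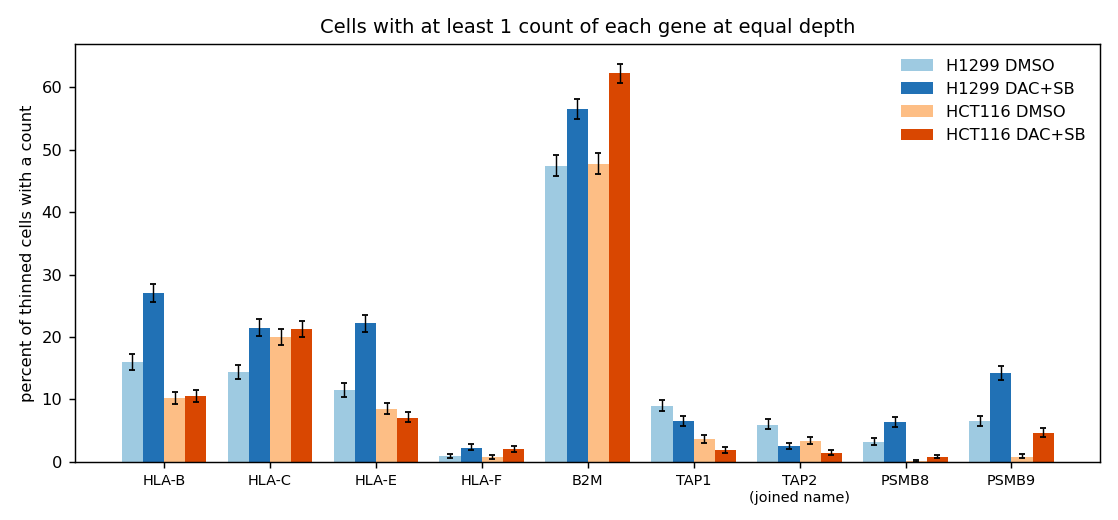
Percent of cells with at least 1 count of each gene after thinning every cell to 3300 counts, 1 bar per library, with exact Clopper-Pearson 95% intervals over cells. The H1299 bars are higher with DAC+SB for every heavy chain gene, B2M, PSMB8 and PSMB9, and lower for TAP1 and the joined name with TAP2.

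Summed over the 8 genes, a thinned cell held on average 1.38 counts in H1299 with DMSO and 2.11 with the compounds, and 1.20 and 1.64 in HCT116. Without B2M an H1299 cell held 0.678 and 1.17 on average and an HCT116 cell 0.499 and 0.544, so most of the HCT116 difference was in B2M. Over whole libraries the B2M increase stood in its numbered feature, with log2 ratios without a number of -0.03 in H1299 and -0.08 in HCT116. Cells with none of the 8 made up 27.9% and 16.9% in H1299 and 33.2% and 24.4% in HCT116. The variance of this sum over its mean (Fano factor, 1 for counting noise alone) was 1.17 and 1.32 in H1299 and 1.17 and 1.42 in HCT116. It was larger in the treated library of each line, where the mean was larger too. The factor was not compared at an equal mean, so it does not show that treated cells were more unlike each other. Of the 28 pairs of genes, those with at least 10 cells expected to hold both by independence numbered 21 and 26 in H1299 and 12 and 15 in HCT116. The median ratio of observed to expected cells over them was 1.04 and 1.08, and 1.04 and 1.12. Single pairs ranged from 0.698 to 1.44 over the 4 libraries. These are weak relations in sparse counts of 1 library each, given as a description.

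The genes whose levels over the 4 libraries were most like the median of the set were found by Euclidean distance on log2(CPM + 1), centred on each gene's mean. Among 15497 other genes, the nearest 5 were RP11-535A19.2 (distance 0.120), SKIV2L (0.121), RP11-15A1.4 (0.121), AP000279.69 (0.125) and GPLD1 (0.129). SKIV2L, which encodes an RNA helicase of the exosome pathway, had 23.6 and 39.9 CPM in H1299 (DMSO first) and 15.5 and 17.8 CPM in HCT116. The other 4 nearest genes had at most 4.40 CPM in any library. The members lay between 0.301 (HLA-B) and 2.09 (PSMB8) from their own median, so the 8 genes did not share 1 pattern. With 4 points per gene, likeness is a description only.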

How the data were processed

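The authors deposited a table of whole-number gene counts and one of transposable element counts, each giving a feature, a cell and a count. Per the submitters' processing notes, CASAVA, STAR and the GRCh38 (hg38) genome were used. Whether counts are UMIs, the counting tool, the annotation and the cell filter are each not given in the sources used here. Cells were assigned to libraries by the library name in the cell name, and every cell was used (lowest total 2086 counts). No doublet caller was run.

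Counts were summed per gene and library over names of 1 gene and scaled to 1000000 gene plus element counts. Ratios carry exact conditional binomial intervals, levels exact Poisson intervals and differences between lines normal-approximation intervals. A gene was called at 2-fold with at least 100 counts in the library with more, and 0 was set to 3 counts. The ratio script was tested on simulated data. Python 3.11.15, numpy 2.4.6, pandas 2.3.3, scipy 1.17.1 and matplotlib 3.10.9 were used, with edgeR 4.0.16 and DESeq2 1.42.0 for scaling factors only.

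The members and lists were chosen with earlier results of these data known. Named were all members, list genes at least 2-fold different in either line or under 10 counts everywhere, the 5 nearest genes, and member features of at least 100 counts; other genes are named to complete a list. Alternatives changed the denominator, scaling factors, joined names, numbered features, cells, threshold, count minimum and thinning. Counts over features without a number, and the comparison of numbered features listed in both libraries, were chosen after seeing the data.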

Additional observations from a re-analysis of the deposited data

Results flagged for a closer look

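HLA-E, the ligand of NKG2A, differed in direction between the lines. Its log2 ratio of DAC+SB to DMSO was 1.02 in H1299 and -0.30 in HCT116. With 1 library per group the difference between the lines was not tested over replicates. Summed over features, the values ran from 0.85 to 1.09 in H1299 and from -0.62 to -0.16 in HCT116 over the scalings, cell filters and feature restrictions run. The numbered feature taken alone was at 1.47 in H1299 and at 0.21 (0.02 to 0.39) in HCT116, so the HCT116 direction is that of the feature without a number.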

How the results depend on the processing

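No paired analysis was possible because each group had 1 library and no test was made. The choice of deposited features moved the values most. Over features without a number, a setting chosen after seeing the data, the median log2 ratio of the genes was 0.68 in H1299 and -0.25 in HCT116 (6 genes). That of HCT116 over H1299 was -1.58 with DMSO (7 genes) and -2.03 with DAC+SB. HLA-F had under 100 counts in the sets of 6 and 7, and PSMB8 in that of 6. Over all features the middle values of those 6 genes were 0.09 and 0.13. The median of those 7 was -0.76 between DMSO lines, the value of HLA-B. Over features without a number, 1 gene was at least 2-fold higher in each line, against 14.4% and 10.2% of all genes. TAP1 was 2-fold lower in HCT116, where 25.7% were. TAP1 was also 2-fold lower there with numbered features only where listed in all 4 libraries. In that second setting the HCT116 median was 0.092 over 7 genes and that between DMSO lines -0.97. Joined names added gave 0.13 and -0.76. With them 1 of 9 genes was 2-fold lower in H1299, TAP2 at -1.25, against 7.23% of genes. The HCT116 median was 0.14 without the 5% of cells with most counts and 0.17 without cells above 25% mitochondrial counts, again over 7 genes. PSMB8 had under 100 counts in these 3 settings, and the other 7 genes had a median of 0.13 over all features and cells. Leaving mitochondrial and ribosomal protein genes out of the denominator gave 0.59 in HCT116, -0.46 between DMSO lines and -1.34 between treated lines. The value between DMSO lines was -0.43 with TMM factors, and that between treated lines -1.33 with median-of-ratios factors. That denominator also moved the median of all HCT116 genes from -0.23 to -0.10. At 4-fold, 0 genes were called higher in H1299, against 11.0% of all genes, and 2 in HCT116, against 9.63%. In the 3 settings that left out PSMB8 alone the HCT116 count was 1, against 5.68%, 9.19% and 8.64%. Over features without a number the counts were 1 in H1299, against 7.90%, and 0 in HCT116, against 5.31%. With median-of-ratios factors HLA-E was at 0.98 in H1299 and lost its 2-fold call. Treatment ratios changed sign only for B2M in both lines and for HLA-B and HLA-C in HCT116, and only under the restrictions on features. B2M between the treated lines also changed sign, from 0.23 to -0.68, over features without a number. Line ratios near 0, of B2M with DMSO (-0.04) and HLA-C with DAC+SB (-0.07), turned above 0 under other scalings, to at most 0.095 and 0.10. The cause of these shifts was not tested. Low counts limit PSMB8 and HLA-F in HCT116, with 35 and 136 in the DMSO library, which did not list the numbered feature of PSMB8.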
